A study of Saccharomyces cerevisiae with 46 samples.

Results

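The ribosomal DNA array of budding yeast was described from read depth on chromosome XII of the R64 assembly, in the stretch of 1 kb bins from the one that ends at 452000 to the one that begins at 490001. It holds the annotated transcription units RDN37-1 (451575 to 458432) and RDN37-2 (460712 to 467569). Of the 12165 bins in each sample, 40 lie in this interval. Reads were found in over 50% of the samples in 10 of them, and these 10 bins gave the array level. The study is titled after chromosome-specific aneuploidy in cells deficient in Bub3, which acts in the checkpoint that makes cells wait for chromosomes to attach to the spindle. All 46 samples were overnight cultures of the strain background W303, from which genomic DNA was sequenced. There were 20 lines, with codes such as A1, with 1 non-evolved and 1 evolved sample each, 3 further samples called evolved_Bub3 from lines C2, E3 and G4, and 3 samples of a wildtype, LY1, with 1 in each state. The labels do not give the genotype or ploidy of the lines, the number of generations, what sets evolved_Bub3 apart from evolved, or whether the lines came from separate clones, so p-values measure the spread between these lines. The order of the libraries follows the states and cannot be told apart from them.

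In yeast the ribosomal RNA genes form a long tandem repeat on the right arm of chromosome XII. Each repeat holds the 35S unit, transcribed by RNA polymerase I and cut into the ribosomal RNAs of the small and, but for the 5S RNA, the large subunit, and the 5S gene, transcribed by RNA polymerase III in the spacer between neighbouring units. The number of repeats can rise or fall by recombination, which depends on the replication fork barrier protein Fob1 and is held back by the histone deacetylase Sir2. The reference assembly writes out only a pair of the units, so reads from all repeats of a culture can be placed only on this pair and its spacer. Where such reads are kept, their depth over the rest of the genome follows the number of repeats.

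The array stood far above the rest of the genome, but its reads came almost wholly from a pair of bins at the spacer between the units. The bin from 459001 to 460000, which holds the 5S gene RDN5-1 (459676 to 459796), was at a median of 40.03 times the sample baseline over the 46 samples, with a range of 22.6 to 87.4. The baseline is the median of the 16 nuclear chromosome medians of the sample. The next bin, from 460001 to 461000, which ends the spacer and enters the 3′ end of RDN37-2, was at 82.4 times the baseline, with a range of 45.2 to 175. These 2 bins held 96.9% of the reads of the interval. The first lies wholly between the units and the second has 711 of its bases there, so both are called spacer bins below, although bins of this size cannot tell spacer reads from reads of the genes within them.

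The bodies of the 35S units could hardly be read. The 6 bins inside RDN37-1, from 452001 to 458000, held 28 reads over all 46 samples together, and the 5 bins of RDN37-2 from 462001 to 467000 held 24. They cover the 18S genes RDN18-1 and RDN18-2, the smaller RDN58-1 and RDN58-2, and most of the 25S genes RDN25-1 and RDN25-2. RDN37-1 had reads in over 50% of the samples only at its ends, in the bin that ends at 452000 and the one at 458001. RDN37-2 had them only in the bins at 460001 and 461001, both toward its 3′ end. The bin at its other end, at 467001, had reads in 11 of the 46 samples. The sources used here do not say whether reads with several equal placements were kept. The level is therefore the depth of this pair of bins, and was not turned into a number of repeats.

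The bins around the spacer pair fell off within 1 kb on each side. The bin at 461001, inside RDN25-2, was at 1.19 times the baseline as the median over samples (0.444 to 3.37). On the other side the bin at 458001, which holds the start of RDN37-1 and, for the larger part, the spacer beside it, was at 0.0717 (0.00765 to 0.217). Further along, the bin at 468001 with the 5S copy RDN5-2 was at 0.210 and the bin at 469001 with the left end of ASP3-1, a gene for the cell-wall asparaginase, was at 0.0569. From 470001 to 488000 a run of 18 bins held 5 reads over all samples, and no read in any sample fell in 14 of them. Annotated there are the 5S copies RDN5-3, RDN5-4 and RDN5-5, the asparaginase genes ASP3-2, ASP3-3 and ASP3-4 with the rest of ASP3-1, and the Ty open reading frames YLR157C-A and YLR157C-B. Reads came back at 489001, the bin of RDN5-6 and YLR162W (0.795 times the baseline), and at 490001, the bin of RRT15 (0.882). The nearest genes outside the interval were at single-copy depth: the transfer RNA gene YNCL0009C on the left was at 0.997 times the baseline and MAS1, for a subunit of the mitochondrial processing peptidase, on the right at 1.05.

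**Figure D1:**
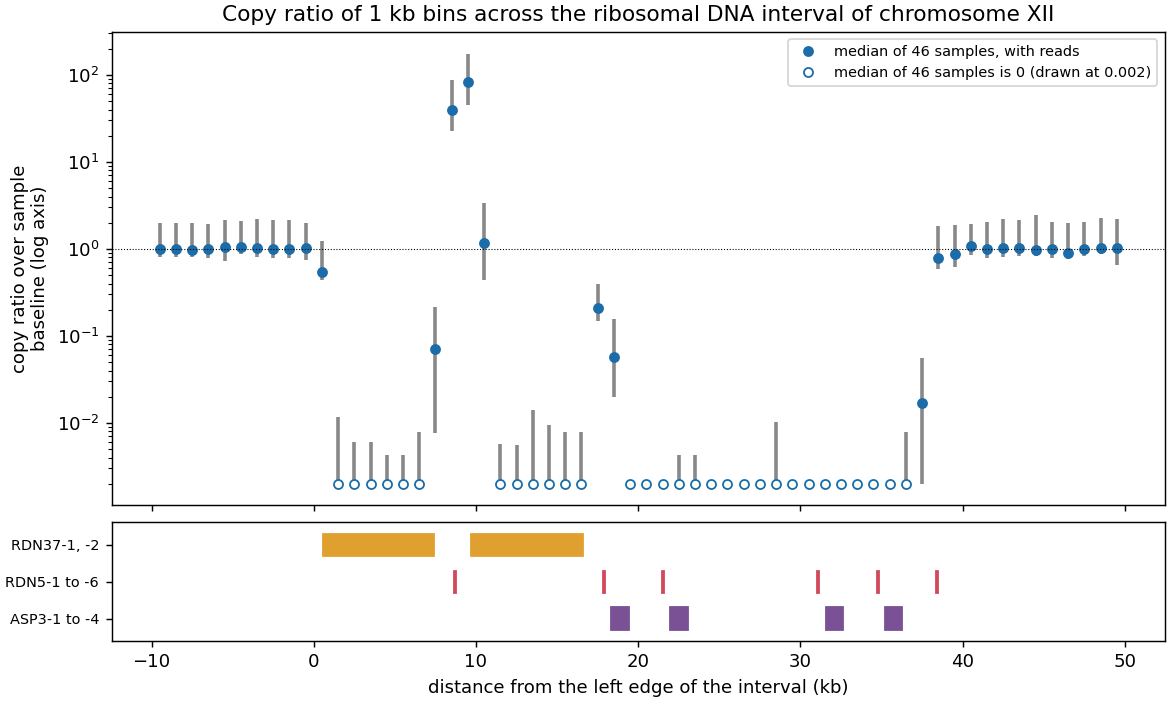
Copy ratio over the sample baseline (vertical axis, log scale) of each 1 kb bin against the distance from the left edge of the interval (horizontal axis, kb), with 10 kb on each side; points are medians over 46 samples, bars run from the lowest to the highest sample, and boxes mark the annotated RDN37, RDN5 and ASP3 genes. The pair of bins between the RDN37 units stands at 40.03 and 82.4 times the baseline, while the bodies of both units and the run with ASP3-2 to ASP3-4 have medians of 0.

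The 2 spacer bins moved together from sample to sample. The log2 difference between them was 1.02 ± 0.02 (SD over 46 samples) and ranged from 0.98 to 1.09. Across the 46 samples their levels relative to chromosome XII correlated with r = 0.997. This is a description only: the bins are neighbours in the same repeat and share the library and its depth. The counting error of the array level was at most 0.012 on the log2 scale in any sample, well under the spread between lines given below.

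**Figure D2:**
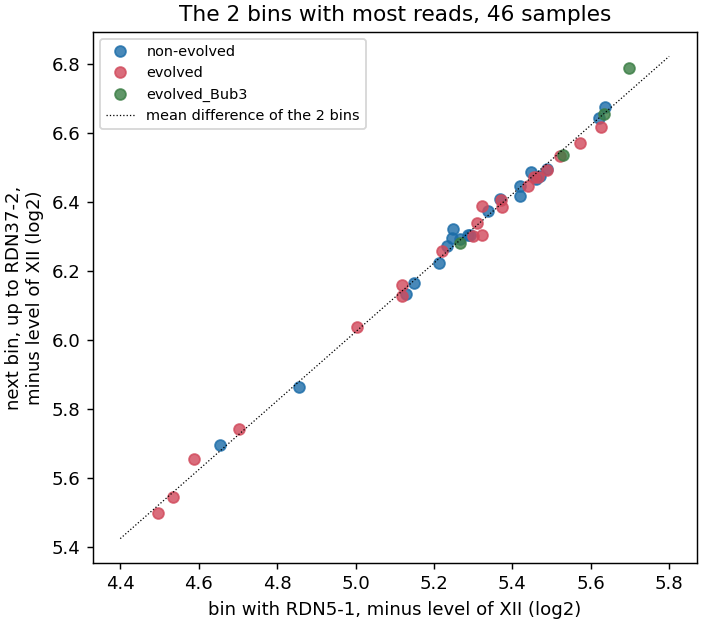
Log2 copy ratio of the bin from 460001 (vertical axis) against that of the bin from 459001 (horizontal axis), both minus the level of chromosome XII, 1 point per sample, coloured by state; the dotted line has the mean difference of 1.02. The 46 points lie along the line, and the lowest are the evolved samples of D3, A4 and A1, followed by non-evolved A2.

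The array level, the log2 of the mean copy ratio over the 10 bins minus the sample baseline, was 3.71 ± 0.38 (SD, n = 20) in the non-evolved lines and 3.50 ± 0.33 (SD, n = 20) in the evolved lines. Non-evolved samples ran from 2.998 in line A2 through a median of 3.67 to 4.76 in line A1. Evolved samples ran from 2.83 in line D3 through a median of 3.62 to 3.91 in line C3. The groups overlapped over most of their range. As a share of all nuclear reads the interval took 0.586% (95% exact binomial interval 0.577% to 0.596%) in evolved A4 and 2.01% (1.99% to 2.03%) in non-evolved A1, the lowest and the highest of the 46 samples. These intervals cover counting error only.

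The highest levels came from the samples with an extra dose of chromosome XII. Chromosome XII outside the array was gained (log2 level of 0.3 or more) in 2 of the 46 samples, the non-evolved samples of lines A1 and A4, where it stood at 0.99 in both. Their array levels were 4.76 and 4.47, and the next highest of the 46 was at 4.03. With the level of chromosome XII taken off, they stood at 3.78 in A1 and 3.48 in A4. The 18 non-evolved lines without this gain were between 3.01 and 3.96 on the same scale, so both samples lay inside that range. The evolved samples of both lines had no XII gain. Levels relative to chromosome XII are used from here on unless stated otherwise.

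**Figure D3:**
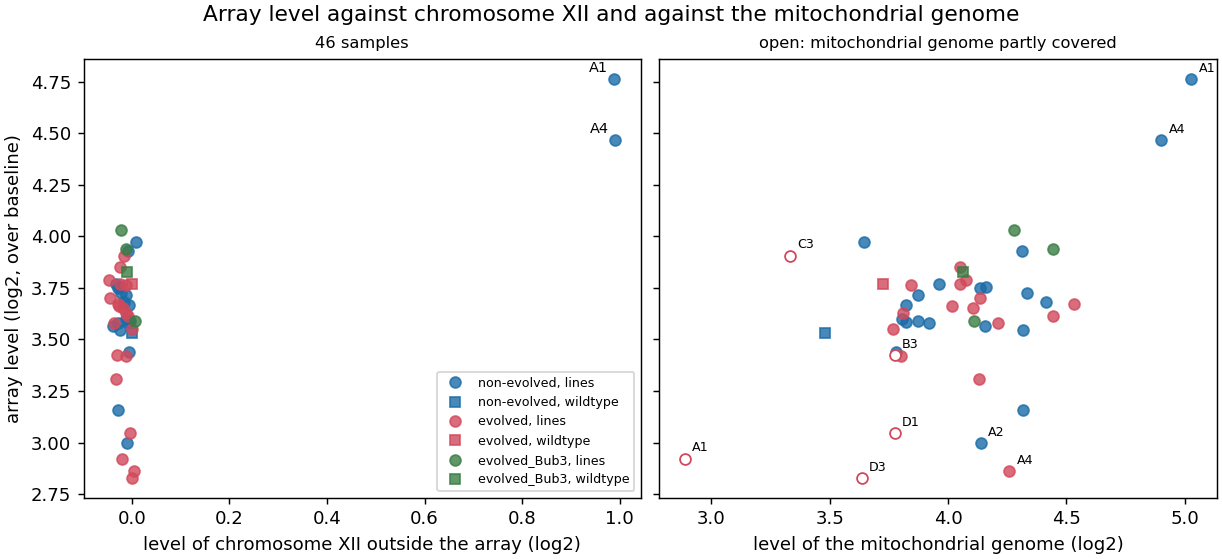
Array level over the sample baseline (vertical axis, log2) against the level of chromosome XII outside the array (left, log2) and against the level of the mitochondrial genome (right, log2) in the 46 samples; circles are lines, squares the wildtype, and open circles evolved samples with a partly covered mitochondrial genome. Non-evolved A1 and A4 stand apart in both panels, at XII levels of 0.99 and mitochondrial levels of 5.03 and 4.90.

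Relative to chromosome XII the array was at 3.63 ± 0.23 (SD, n = 20) in the non-evolved and at 3.52 ± 0.34 (SD, n = 20) in the evolved lines. The paired difference, evolved minus non-evolved, was -0.11 ± 0.35 (SD over 20 lines). The array was lower after evolution in 13 lines and higher in 7. A two-sided paired sign-flip permutation test gave p = 0.170 and an adjusted p of 0.255 over the 3 results of this contrast. Over the sample baseline the difference was -0.22 ± 0.59 (SD over 20 lines), with 13 lines lower and 7 higher (permutation p = 0.127, adjusted p = 0.255). Neither mean difference passed the test. Without A1 and A4 the difference over the baseline was -0.05. In a culture, fewer repeats in each cell and a mixture of cells with long and short arrays cannot be told apart.

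The change was uneven among the lines, and 4 of them had the largest decreases. In line A1 the array went from 3.78 to 2.94 after evolution, which is 1.78-fold lower. In line D3 it went from 3.61 to 2.83, 1.72-fold lower. In line A4 it went from 3.48 to 2.86, 1.53-fold lower. In line D1 it went from 3.59 to 3.05, 1.46-fold lower. Before evolution all 4 were inside the range of the other lines, and after it they were the 4 lowest of the 20 evolved samples: the next sample up, A2, was at 3.34. The non-evolved samples of A1 and A4 had the XII gain given above, and their evolved samples had none. D1 and D3 had no XII gain in either state. The part of this gain in the values was not tested.

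The other 16 lines changed by -0.32 to 0.33 with a median of -0.02, with 7 of them higher and 9 lower after evolution. The largest decrease among them was in B2, from 3.96 to 3.64, and the largest increases were in A2, from 3.01 to 3.34, and in C3, from 3.59 to 3.92. Before evolution A2 and B3, at 3.01 and 3.19, were the lowest lines, and no other non-evolved line was under 3.44. Both were higher after evolution, B3 at 3.46. In 10 of the 20 lines the change was smaller than 0.2 in either direction. Each state of a line was sampled by 1 library, so the change of a single line has no replicate check. The lines above were picked out by their values, and no test was made on them.

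The wildtype gives a rough scale for such changes, with 1 sample per state and no test. The non-evolved LY1 stood at 3.53, the evolved at 3.77 and the evolved_Bub3 at 3.84, a range of 0.31. Its evolved sample was thus 0.24 above the non-evolved one. Among the 20 lines, 5 were lower and 2 were higher after evolution by more than the range of the 3 wildtype samples.

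**Figure D4:**
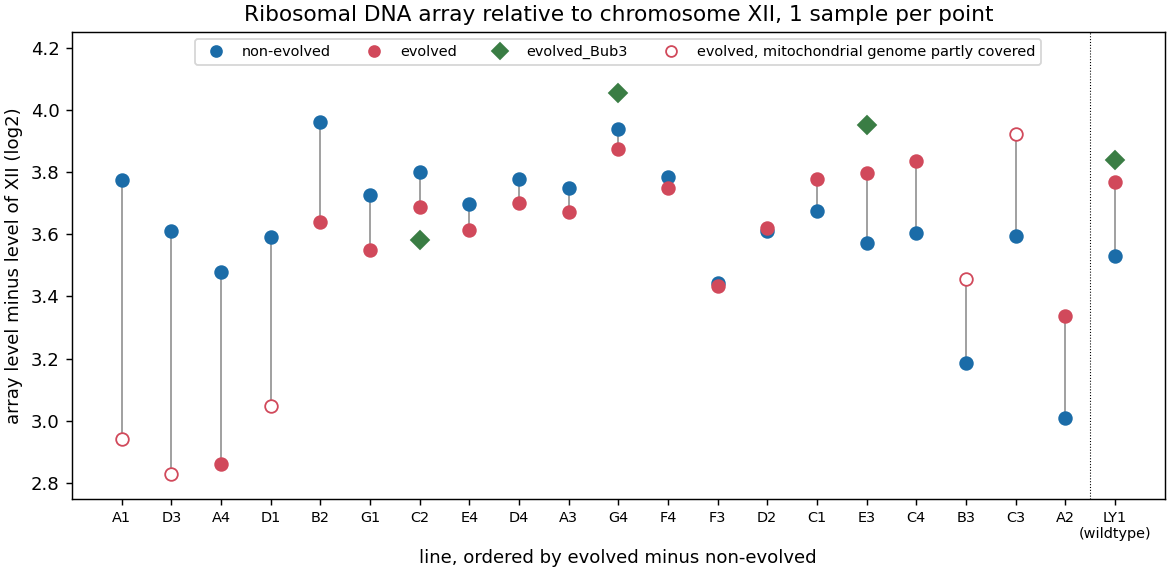
Array level minus the level of chromosome XII (vertical axis, log2) in each line (horizontal axis, ordered by the change from non-evolved to evolved), 1 point per sample, with the wildtype at the right; open circles mark evolved samples with a partly covered mitochondrial genome. Lines A1, D3, A4 and D1 change by -0.83 to -0.54 and have the 4 lowest evolved levels, and the other 16 lines change by -0.32 to 0.33.

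The spread among lines did not pass a test of a difference between the states. The log2 ratio of the SDs, evolved over non-evolved, was -0.20 for the level over the baseline (permutation of the states within lines, p = 0.589, adjusted p = 0.589). Relative to chromosome XII it was 0.59 in the other direction (p = 0.176, unadjusted), an alternative chosen after seeing these values. With A1 and A4 left out, whose non-evolved samples carry the XII gain, the ratio over the baseline was 0.23. With all lines and the median ratio of the bins in place of the mean ratio, the ratio over the baseline was -1.06 (p = 0.0480, adjusted p = 0.144). That median falls among bins near or below single-copy depth and not at the spacer pair. It therefore does not measure the spread of the spacer depth.

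The evolved_Bub3 samples were set against the evolved samples of the same lines. In C2 the array went from 3.69 to 3.58, in E3 from 3.80 to 3.95 and in G4 from 3.87 to 4.05. The change was lower in 1 line and higher in 2, and the evolved_Bub3 sample of G4 was the highest of all 46 relative to chromosome XII. The mean difference was 0.08 ± 0.16 (SD, n = 3; exact sign-flip p = 0.5, adjusted p = 0.5), and 0.09 ± 0.14 over the sample baseline (SD, n = 3; exact p = 0.5, adjusted p = 0.5). Each line moved this mean by over 1.5 times: relative to XII it was 0.17 without C2, 0.037 without E3 and 0.025 without G4, and over the baseline 0.18, 0.055 and 0.048. With 3 lines such a test cannot give a p below 0.25.

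The depth of the BUB3 gene on chromosome XV was set beside the array, without a test, since the labels give no genotype. Relative to its chromosome, BUB3 stood at or below -0.9 on the log2 scale in both states in 11 lines, and above it in both states in the other 9. The array of the 11 lines was at 3.01 to 3.94 before and 3.34 to 3.87 after evolution. The array of the 9 lines was at 3.44 to 3.96 before and 2.83 to 3.92 after evolution. The 4 lines with the largest decreases, A1, A4, D1 and D3, were among the 9. So were B2, G1 and F3, which changed by -0.32, -0.18 and -0.0095, and C3 and C1, which were higher after evolution by 0.33 and 0.10. Of the 11 lines, A2, B3, C4, D2 and E3 were higher after evolution and the others lower. In the evolved_Bub3 samples of the 3 lines BUB3 was at 0.76 to 1.42, above the depth of its chromosome. The wildtype LY1 also had it above, at 1.19, in its evolved_Bub3 sample, against -0.03 in its evolved sample.

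The mitochondrial genome was read in 86 bins, and in 5 evolved samples only some of these were covered. A bin was counted as covered where its log2 copy ratio was above -2, so a bin that was not covered may still hold reads. Line A1 had 3 of the 86 bins covered, C3 had 6, D1 and D3 had 10 each and B3 had 22. The array of these samples was at 2.94 in A1, 3.92 in C3, 3.05 in D1, 2.83 in D3 and 3.46 in B3. They thus included both the lowest and the highest evolved sample. The 15 evolved samples with the whole mitochondrial genome were between 2.86, in A4, and 3.87, in G4. Of the 4 lines with the largest decreases, A1, D1 and D3 had partial mitochondrial coverage and A4 had all 86 bins covered. The part of the mitochondrial genome in these values was not tested.

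Across samples, 7 relations of the array level were tested by permutation, and none passed after Benjamini-Hochberg adjustment. Over the 20 non-evolved samples the level correlated with the mitochondrial level at r = 0.58 (p = 0.01002, adjusted to 0.0701), with a rho of 0.24 (p = 0.302, adjusted to 0.528). This relation rested on A1 and A4: without them r was -0.16, and relative to chromosome XII it was -0.07 (p = 0.758) over all 20 samples. Over the 15 evolved samples with a whole mitochondrial genome r was -0.13 (p = 0.627, adjusted to 0.627), with a rho of -0.08 (p = 0.769, adjusted to 0.897). The levels share the sample baseline, which enters both sides.

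The relation between the array levels of a line before and after evolution did not pass either. Over 20 lines r was -0.32 (permutation p = 0.161, adjusted to 0.281), with a rho of -0.02 (p = 0.951, adjusted to 0.951). Without A1 and A4, the lines farthest from the median, r was 0.37 (p = 0.122), and relative to chromosome XII it was 0.30 over all 20 (p = 0.197, adjusted p = 0.460). With the number of gained chromosomes the level correlated at r = 0.14 before evolution (permutation p = 0.578, adjusted to 0.627; rho = 0.10) and at r = 0.39 after it (p = 0.0912, adjusted to 0.213; rho = 0.43). With 2 samples left out these became 0.10 without F3 and G1, and 0.27 without E3 and G4. Other lines with the same number of gains, such as D3 before evolution and D4 after it, were kept, so the choice of these pairs was arbitrary.

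The number of reads of a library was checked in the same way. Before evolution r was -0.49 (permutation p = 0.0271, adjusted to 0.0948), with a rho of -0.42 (p = 0.0666, adjusted to 0.233). It was -0.17 (p = 0.510) without A1 and B2, the samples with the fewest reads, and -0.32 (p = 0.174) relative to chromosome XII. After it r was -0.22 (p = 0.356, adjusted to 0.499), with a rho of -0.30 (p = 0.199, adjusted to 0.464). Libraries held 1961866 to 3770032 reads, and their median bin 130 to 292. The 4 evolved samples with the lowest array held between 2256015 reads, in D1, and 3402341 reads, in D3, and the evolved lines as a whole ran from 2256015 to 3770032.

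Single bins of the array were read from a limma fit over 11808 nuclear bins, with each ratio taken relative to its own chromosome and the line as block. By this fit 0 of the 10 array bins passed an adjusted p of 0.05, against 1 of all 11808 bins (0.00847%), a call outside the array that 4 of the 5 alternative fits did not make, and 559 of all bins had an unadjusted p under 0.05. Among the array bins 3 had such an unadjusted p. The bin at 461001 was lower in the evolved samples by a log2 difference of -0.32 ± 0.11 (SE; p = 0.00599), the bin at 458001 by -0.59 ± 0.22 (SE; p = 0.0120) and the bin at 490001 by -0.11 ± 0.05 (SE; p = 0.0241). Their adjusted p in limma was 0.989 in each case. The spacer bins had log2 differences of -0.11 ± 0.07 (SE) at 459001 and -0.11 ± 0.07 (SE) at 460001. The median over the 10 bins was -0.11, with 9 lower and 1 higher, against a median of -0.00034 over all bins. The bins of the array are not independent of each other.

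The change of the array bins varied among the lines more than that of most bins. The SD over 20 lines of the evolved minus non-evolved log2 difference was 0.36 at 459001 and 0.35 at 460001. The median bin of the genome had 0.185, over 11726 bins with reads in every one of these samples. Larger spreads than that of the bin at 459001 were found in 151 bins (1.29%), and larger ones than that of the bin at 460001 in 160 bins (1.36%). This was not particular to the spacer bins. Of the other 7 array bins with reads in all samples, 3 had a larger SD than both spacer bins. These were 0.59 at 461001, 1.23 at 458001 and 0.63 at 469001. The others had 0.21 to 0.36, and the bin at 468001, at 0.358, lay between the spacer bins. The bins at 458001 and 469001 held a median of only 14.5 and 12 reads per sample, while the spacer bins held a median of 8439 and 17257.

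The 2 bins next to the spacer pair followed it less closely. The bin at 461001 minus the bin at 460001 was at -5.98 as the median of the non-evolved lines (-6.31 to -5.64) and at -6.11 in the evolved lines (-6.81 to -5.89), on the log2 scale. It was lower in the evolved sample in 13 of 20 lines, and the lowest value was that of evolved A1. The bin at 458001 minus the bin at 459001 was at -9.02 (-9.36 to -8.21) and at -9.28 (-11.83 to -8.25), lower in 12 of 20 lines. Over the 46 samples the level of the bin at 461001 relative to XII correlated with that of the bin at 460001 at r = 0.84. For the bin at 458001 this r was 0.48. The differences above correlated with each other at r = 0.68 and with the array level relative to XII at r = 0.18 and 0.16. As differences from the spacer bins, they do not measure how closely the 2 bins followed the pair. These are descriptions, since the bins share a library, and the bin at 458001 holds few reads, against a median of 249.5 per sample at 461001.

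The genes that keep the array and transcribe it were read by their own copy level. A list of 32 held factors of array stability such as FOB1 and SIR2, initiation factors and subunits of RNA polymerase I, and the condensin subunits. In a limma fit over 6383 nuclear genes, 0 of the 32 passed an adjusted p of 0.05, against 0 of all genes (0%). An unadjusted p under 0.05 in this fit was found for 217 of the 6383 genes and for 0 of the 32. The evolved level was higher for 10 list genes and lower for 22, with a median log2 difference of -0.01, as over all genes (-0.0086). The split of all genes by direction is not given here, so these counts have no share beside them. On chromosome II, gained in 8 non-evolved and 7 evolved lines, lie BRN1, a condensin subunit, RRN10, of the upstream activation factor, and RRN6, of the core factor. On chromosome III, gained in 4 non-evolved and 5 evolved lines, lies CSM1, a subunit of the monopolin complex that also holds the array in the nucleolus. Over the sample baseline BRN1 had a mean level of 0.37 before and 0.33 after evolution, and CSM1 of 0.28 and 0.31. The levels of RRN10 were 0.43 and 0.40, and those of RRN6 0.40 and 0.36. FOB1, at -0.05 and -0.07, and SIR2, at -0.03 and 0.01, lay near the baseline in both states and were chosen for the text after their values were seen.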

How the data were processed

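Each deposited file listed log2 copy ratios of 1 sample by bin (1 kb). The submitters' processing notes name GATK, whose copy-number output the header resembles, and Picard 2.27.1, BWA 0.7.17 and Trimmomatic 0.39. Mapping-quality filters, duplicate removal and any panel of normals were not given in the sources used here. Contigs have the lengths of R64 per the file headers, and the gene table used for names is of that assembly.

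Within a sample the ratios were whole numbers of reads over the median bin (100% within 0.01 reads, or within 2e-06 of the reads of a bin where that was more), which gave the read counts. The array level was the log2 of the mean ratio of its bins with reads in over 50% of the samples, minus the sample baseline. Lines were paired by the code in the titles. As a check, the bins of a line, each taken minus its group mean, correlated between the states with a median r of 0.03, above 0.1 in 0 of 20 lines, so the pairing rests on the labels alone. Mean differences were tested by sign-flip permutation (100000 resamples, or exact with 3 lines), relations by permutation, single bins and genes with limma 3.58.1 in R 4.3.3, where a bin without reads was given 0.5 reads. The limma step was tested on simulated data. No pair of samples in a group agreed within sampling noise (lowest chi-square per degree of freedom 1.68). Groups by XII gain, BUB3 depth and mitochondrial coverage were given as values only.

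The members, lists, tests and alternatives were chosen with earlier results of these data known. By rule the text names the annotated features of the interval, its neighbours, and list genes that passed the test or lie on a chromosome that 4 or more of the 20 lines of a state had gained. Reads of 1 library are not independent molecules, so intervals cover counting error only.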

Additional observations from a re-analysis of the deposited data

How the results depend on the processing

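No result of the array or of the gene list crossed its threshold under any alternative run. The 1 called bin of the genome, outside the array, was called with the filter on reads in every sample and not with no replicate block, without A1 and A4, without the lines of partial mitochondrial coverage, or over the baseline. In the paired comparison of evolved with non-evolved lines, the permutation test with no replicate block gave the same difference of -0.22 over the baseline (p = 0.0648) and of -0.11 relative to XII (p = 0.229). The mean of the log2 ratios, which gives each of the 10 bins equal weight, gave p = 0.0441 over the baseline (difference -0.26, adjusted p = 0.0802), and -0.16 relative to XII (p = 0.0535). Bins with few reads, such as that at 488001 with a median of 3.5 per sample, thus counted as much as the spacer bins. The median ratio of the bins gave smaller differences, -0.14 over the baseline (p = 0.283) and -0.041 relative to XII (p = 0.507). That median falls among bins near or below single-copy depth, not at the spacer pair. Examples are the bins that end at 452000 and begin at 489001, at 0.538 and 0.795 times the baseline as medians over samples. It is thus not a measure of the spacer depth. Without lines A1 and A4 the differences were -0.05 over the baseline and -0.04 relative to XII, and without the 5 lines of partial mitochondrial coverage -0.12 and -0.04, in the same order. Leaving out each line in turn gave -0.24 to -0.13 over the baseline and -0.14 to -0.07 relative to XII.

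The evolved_Bub3 difference turned its sign with the median ratio of the bins (-0.069, and -0.085 relative to XII) and with the mean of the log2 ratios relative to XII (-0.0093). As said above, the median ratio does not take in the spacer pair, which also holds for the SD ratio below. With 1 line left out it was 0.048 to 0.18 over the baseline and 0.025 to 0.17 relative to XII. The SD ratio was -1.06 with the median ratio (p = 0.0480, adjusted p = 0.144), -0.53 with the mean of the log2 ratios, -0.34 without the lines of partial mitochondrial coverage, 0.23 without A1 and A4, 0.59 relative to XII, and -0.38 to 0.054 with 1 line left out, above 0 without A1. Of the relations, that between the states was 0.37 without the 2 farthest lines, which are A1 and A4, and 0.30 relative to XII. That to the mitochondrial level in non-evolved lines was -0.16 without A1 and A4 and -0.073 relative to XII, and in evolved lines 0.080 without A1 and A4. That to the number of gains in non-evolved lines was -0.21 without A1 and A4 and -0.17 relative to XII. For these reversals the cause was not tested.

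The planned GC correction and the relation to a GC slope were not run, since no genome was used. The level is set by the depth of a pair of spacer bins; using these alone, chosen after seeing the data, moved the differences by less than 0.01.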
